A study of Mus musculus with 8 samples.

Results

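Each heartbeat begins when calcium enters the cardiomyocyte through L-type channels of the surface membrane and opens the ryanodine receptor of the sarcoplasmic reticulum, which releases the stored calcium that drives contraction. The sodium-calcium exchanger and the reticulum calcium pump then remove it. Maturing cardiomyocytes bring these channels together at junctions between both membranes. The genes described here encode parts of that system, and they were examined for H3R17me2a, the asymmetric dimethylation of arginine 17 of histone H3 that the methyltransferase Carm1 deposits and that is known as a mark linked to gene activation.

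The 10 genes were Cacna1c, Cacna2d1 and Cacnb2 (subunits of the L-type channel), Ryr2, Trdn, Asph and Jph2 (the release channel and its junction proteins), Camk2d (a calcium-dependent kinase that phosphorylates both channels), and Slc8a1 and Atp2a2 (calcium removal), out of 21887 protein-coding genes. A peak was assigned to a gene when it overlapped the mm10 gene span or 5 kb on either side. By this rule 27 peaks belonged to the 10 genes. Control 1 gave 9 of its 12990 peaks, control 2 gave 7 of 8742, knockout 1 gave 5 of 4980 and knockout 2 gave 6 of 9531. The genes were chosen by function with their peak calls known, among them calls at different positions of Ryr2, Cacna1c and Cacna2d1, so the presence and number of calls below are a description and carry no test.

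All mice were Carm1fl/fl, that is, both copies of Carm1 could be cut by Cre recombinase. The knockout group (2 ChIP libraries) received AAV9-Cre and the control group (2 ChIP libraries) AAV9-GFP on postnatal day 1; neither the age at collection nor the promoter that drove Cre is stated in the labels. Hearts were mosaic, so nuclei of uninfected cardiomyocytes can be present in the knockout libraries, and nuclei were sorted on the cardiomyocyte marker PCM1. The labels do not say whether replicates came from separate animals.

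The lists were sparse. Total read numbers are not known from them, the median peak had 7 or 8 fragments at its summit, depending on the library, and 16.4% of 28843 merged regions (peaks of any library joined where they overlapped by at least 1 bp) were called in 2 or more libraries. At such depth the mark may be present where no peak was called. Among markers of cell identity, 1 of 10 cardiomyocyte genes, 2 of 8 fibroblast genes and 4 of 8 endothelial genes had a peak in any library. They held 3, 2 and 16 peaks against 5.97, 3.66 and 7.44 expected from their length. Of all protein-coding genes, 23.0% had a peak in any library. The median spans of these lists were 19.6, 37.0 and 53.7 kb. Of all genes below 25 kb, of 25 to 50 kb and of 50 to 100 kb, 10.8%, 22.4% and 39.7% had a peak. Peak calls at marker genes were thus absent for 9 of the 10 cardiomyocyte markers, and the lists do not check the labelled cell type.

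The 22 peaks in genes with a known start position all lay over 10 kb from it. RefSeq start positions on GRCm38.p6, the assembly of mm10, were matched for 7 of the 10 genes, in 11 windows reaching from 250 bases before to 50 after the start; Atp2a2, Trdn and Asph were not matched. No library had a peak in these windows, and the shortest distance from a start to a peak was 10.4 kb. Across all 32815 such windows in the genome, 0.268% overlapped a peak of at least 1 library, so a count of 0 in 11 does not set these genes apart. The 250 bases before the start are shown for Ryr2, Cacna1c and Cacna2d1, whose calls at different positions were known when the genes were chosen, and for Slc8a1, which held the most recurrent region. They show how unlike these starts are in CpG content. Capitals mark CpG dinucleotides.
Ryr2, chr13:12106946-12107195, minus strand: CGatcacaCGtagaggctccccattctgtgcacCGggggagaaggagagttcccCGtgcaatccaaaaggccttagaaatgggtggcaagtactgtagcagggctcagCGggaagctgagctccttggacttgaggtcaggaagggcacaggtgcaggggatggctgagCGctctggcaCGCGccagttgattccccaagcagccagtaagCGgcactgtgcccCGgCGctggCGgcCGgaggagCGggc
Cacna1c, chr6:119108496-119108745, minus strand, the second of 3 starts: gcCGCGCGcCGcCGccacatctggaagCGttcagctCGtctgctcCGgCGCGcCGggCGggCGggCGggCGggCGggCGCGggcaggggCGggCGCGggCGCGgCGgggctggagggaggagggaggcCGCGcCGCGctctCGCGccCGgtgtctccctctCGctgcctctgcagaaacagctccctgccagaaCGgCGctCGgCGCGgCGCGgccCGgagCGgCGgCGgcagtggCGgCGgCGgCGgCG
Cacna2d1, chr5:15934441-15934690, plus strand: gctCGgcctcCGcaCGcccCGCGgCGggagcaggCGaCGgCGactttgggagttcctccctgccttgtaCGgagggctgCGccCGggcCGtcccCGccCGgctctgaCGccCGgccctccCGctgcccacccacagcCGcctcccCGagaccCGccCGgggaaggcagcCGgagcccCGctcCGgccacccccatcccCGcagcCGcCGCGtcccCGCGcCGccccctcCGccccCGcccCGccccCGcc
Slc8a1, chr17:81738388-81738637, minus strand: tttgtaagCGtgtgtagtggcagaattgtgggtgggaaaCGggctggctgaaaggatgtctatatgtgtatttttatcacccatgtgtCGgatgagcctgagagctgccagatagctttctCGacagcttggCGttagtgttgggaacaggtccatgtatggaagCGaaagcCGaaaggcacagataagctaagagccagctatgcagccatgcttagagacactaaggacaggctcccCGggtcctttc

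The Cacna1c stretch held 48 CpG dinucleotides and the Cacna2d1 stretch 36, against 14 in Ryr2 and 8 in Slc8a1. Cacna1c has 3 annotated starts, and the 250 bases before the other two held 5 and 2 CpG, so the stretch shown is the CpG-rich one of this gene. Over the 300-base windows, GC content was 81.3% at this Cacna1c start and 51.3% at each of the others, 80% at Cacna2d1, 65.3% at Ryr2 and 50.7% at Slc8a1, where the median of all windows was 52.7%. The windows of the starts shown held 57 (Cacna1c), 42 (Cacna2d1), 18 (Ryr2) and 9 (Slc8a1) CpG. All were above the median of 7 over all windows, Slc8a1 only slightly. The GC box GGGCGG, searched on both strands, was found in 7 of the 11 windows and in 35.6% of all windows. The 2 Jph2 windows (starts at 163397973 and 163397993) overlap over most of their length and both count among the 7, so the 11 are not all separate sequences. TATAAA was found in 0 of 11 (13.6% of all) and AGATAA in 1 of 11, at Slc8a1 (11.2% of all). No start had a call, CpG-rich or CpG-poor. With 0.268% of all windows overlapping a peak, 11 windows cannot relate calls to CpG content.

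**Figure D1:**
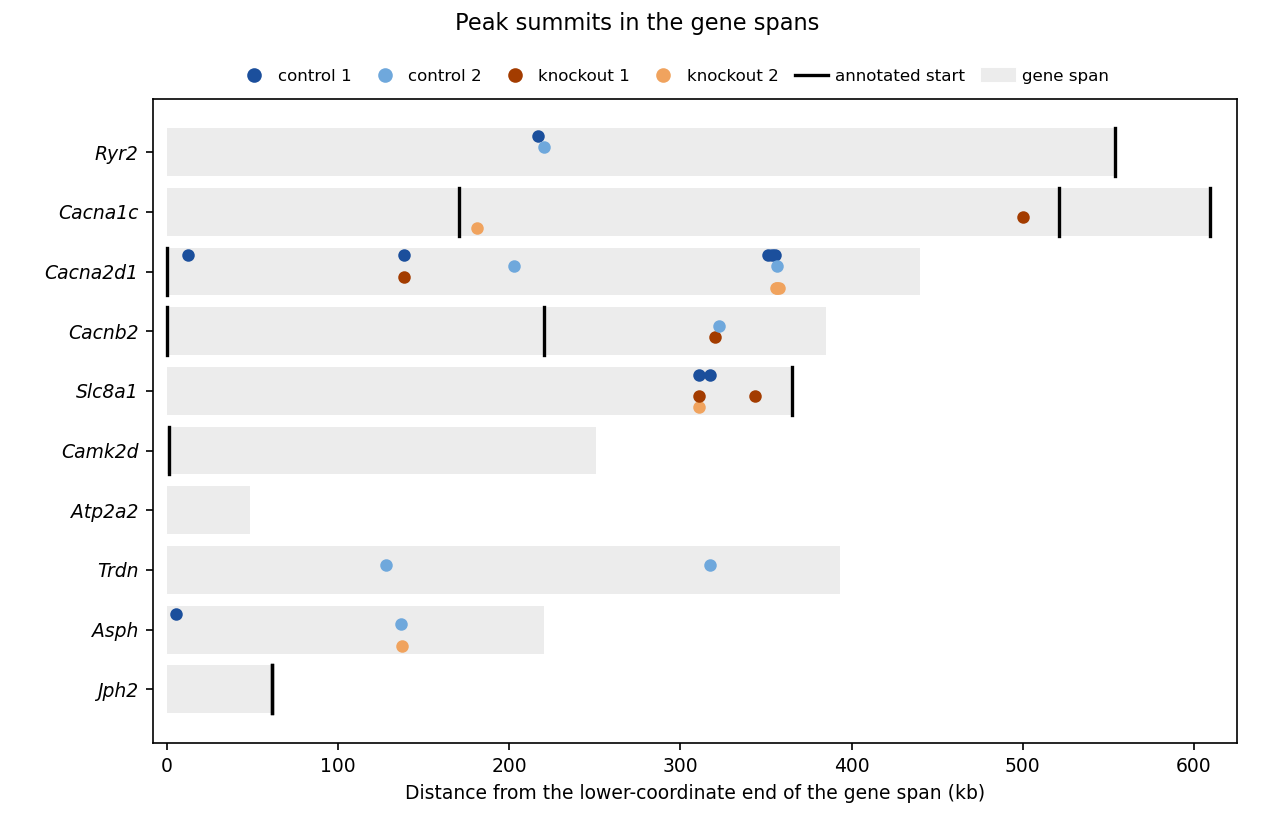
Positions of the 27 peak summits along the 10 gene spans, in kb from the lower-coordinate end (x axis); points are coloured by library, black lines are annotated starts and grey bars the spans. No summit sits at a start drawn (none is drawn for Atp2a2, Trdn and Asph), and the densest group, 7 peaks, lies near the right end of the Cacna2d1 calls.

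The first question was how many calls these genes held for their length, since they are long: the median span was 375 kb, against 17.2 kb for all protein-coding genes. Control 1 had 9 peaks in their 3.43 Mb of windows where 12.5 were expected from its 3.63 peaks per Mb over all coding windows. Control 2 had 7 against 8.70 expected, knockout 1 had 5 against 5.06 and knockout 2 had 6 against 9.51. Observed numbers were at or below the expected number in every library, 27 against 35.7 in sum, a ratio of 0.756. Without Cacna2d1 the sum was 16 against 31.0, but this gene was left out after its count, the highest among the members, was seen.

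By gene, control 1 had a peak in 4 of the 10 (in 12.5% of all protein-coding genes), control 2 in 5 (10%), knockout 1 in 4 (6.37%) and knockout 2 in 4 (10.3%). At least 1 library had a peak in 7 of 10 (23.0% of all genes). Long genes as a whole had a higher share: among the 8 members with a span of 200 kb or more, 7 had a peak, and 89.9% of all 990 genes of that length did. A peak in all 4 libraries was found in 1 member, Cacna2d1 (2.16% of all genes, and 27.1% of genes of 200 kb or more).

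Between the groups, the controls had 8.0 ± 1.41 member peaks (SD, n = 2) and the knockouts 5.5 ± 0.71 (SD, n = 2). Both controls lay above both knockouts in number, but relative to each library's own density they overlapped, with ratios of 0.722 and 0.805 in the controls and 0.989 and 0.631 in the knockouts. Exact 95% Poisson intervals, which cover counting error only, ran from 4.12 to 17.1 for the 9 peaks of control 1 and from 1.62 to 11.7 for the 5 of knockout 1. With every list held to its best 4980 peaks the order of the groups turned, with 4 and 2 peaks in the controls and 5 and 3 in the knockouts.

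**Figure D2:**
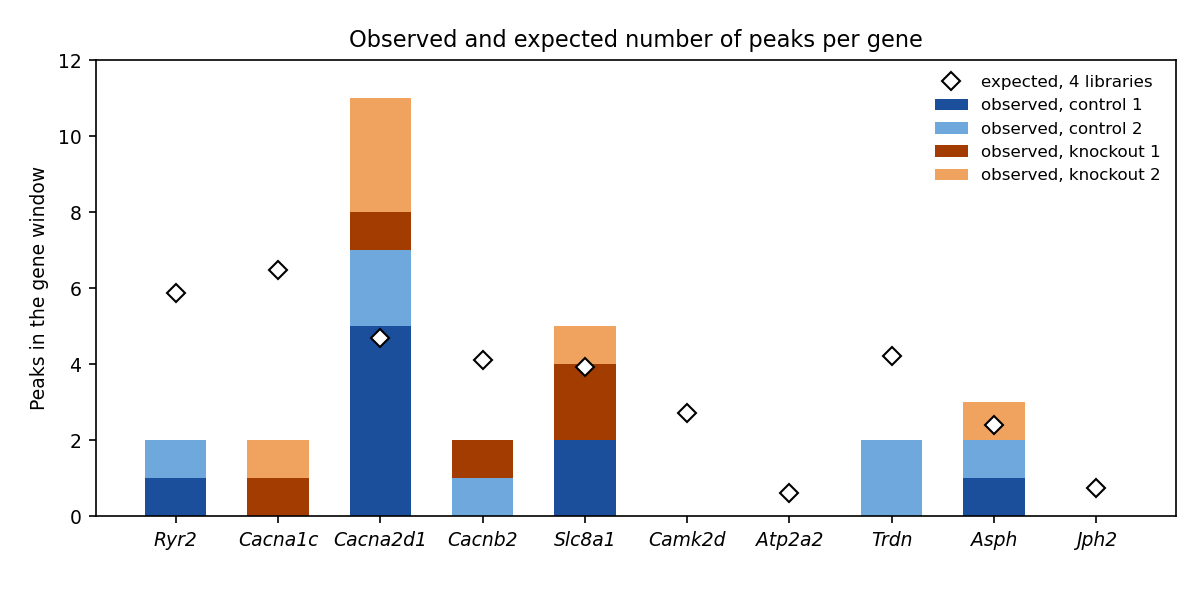
Number of peaks in each gene window (y axis; bars stacked by library, from 0) and the number expected from window length, summed over the 4 libraries (diamonds). Cacna2d1, with 11 peaks against 4.69 expected, stands well above its diamond, and Ryr2 and Cacna1c, with 2 each, well below theirs.

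Cacna2d1 encodes the alpha2delta-1 subunit, an extracellular partner that brings the channel to the membrane. Its span (gene 12293, chromosome 5, 15934264 to 16374511) drew 5 peaks from control 1 (1.64 expected), 2 from control 2 (1.14), 1 from knockout 1 (0.664) and 3 from knockout 2 (1.25). It exceeded the expected number in each of the 4 libraries, although in knockout 1, with 0.664 expected, any single call would do so. Of 796 protein-coding genes with 0.5 to 2 times its span, 7.91% had as many peaks or more, and their median was 3.

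The Cacna2d1 calls were not spread evenly. A stretch of 6.19 kb (chromosome 5, 16285641 to 16291831), 1.41% of the span, held 7 of the 11 peaks. The rest of the gene held 4, where 4.69 were expected over its whole window. The stretch was picked as the densest run of these same calls, which lowers the rest by construction, so the split is a description only. Control 1 called 3 of them, at 16285641 to 16285855 (6.30-fold), 16287586 to 16287995 (5.73-fold) and 16289182 to 16289815 (5.54-fold). Knockout 2 also called 3, at 16289627 to 16290149 (6.11-fold), 16290527 to 16290747 (4.45-fold) and 16291590 to 16291831 (5.12-fold). Control 2 called 1, at 16290395 to 16290605 (5.44-fold), and knockout 1 none. The stretch therefore drew calls in both groups but seldom at the same bases: the first 2 peaks of control 1 were called by no other library, its last overlapped the first of knockout 2 by 189 bp, and the peak of control 2 overlapped the second of knockout 2 by 79 bp. It began 351 kb from the annotated start, so it is far inside the gene; exons and introns were not assigned. As background, 0.393% of all genes and 3.74% of those of 200 kb or more had 7 or more peaks within 10 kb, a number set from this gene. Peaks of 3 or more libraries within 10 kb were found in 2 members, Cacna2d1 and Slc8a1 (3.44% of all genes, 29.7% of the long ones).

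Elsewhere in Cacna2d1, control 1 and knockout 1 called the same place. The control 1 peak (16072503 to 16072965, 463 bp, 5.58-fold) contained the whole knockout 1 peak (16072562 to 16072913, 352 bp, 5.17-fold), on 8 and 9 fragments at the summit. Control 1 alone called 15946852 to 15947129 (4.27-fold), 12.2 kb downstream of the start, and control 2 alone 16137005 to 16137234 (4.08-fold), each on 5 fragments. These last 2 were among the weakest of their lists, at the 2.43rd and 6.78th percentile of fold.

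The pore-forming subunit gene Cacna1c (gene 12288, chromosome 6, 118587240 to 119197384), the longest of the 10, had no peak in either control, 1 in knockout 1 and 1 in knockout 2. The expected numbers were 2.25, 1.57, 0.914 and 1.72. The knockout 1 peak (119087336 to 119087631, 296 bp, 6.22-fold, 9 fragments) lay 21.0 kb downstream of the CpG-rich start shown above. The knockout 2 peak (118768403 to 118768682, 280 bp, 4.39-fold, 5 fragments) lay 10.6 kb upstream of the innermost start. The 2 calls were 318.7 kb apart, so no position of Cacna1c was called in more than 1 library. Of 517 genes of similar span, 85.9% had at least as many peaks, and the median was 5. Calls in both knockouts and neither control were found in this member only (0.37% of all genes, 2.12% of genes of 200 kb or more).

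Cacnb2, the beta2 subunit gene that anchors and gates the channel from the cytoplasm (gene 12296, chromosome 2, 14603861 to 14988811), had 1 peak in control 2 and 1 in knockout 1. Neither control 1, with 1.44 expected, nor knockout 2, with 1.10 expected, had one. The knockout 1 peak (14923972 to 14924401, 430 bp, 5.40-fold, 8 fragments) and the control 2 peak (14926574 to 14926798, 225 bp, 4.08-fold, 5 fragments) lay 2.17 kb apart, about 100 kb past the inner start. A control and a knockout thus each had a call within a few kb in a 385 kb gene, without overlap.

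Ryr2 encodes the channel that releases calcium from the sarcoplasmic reticulum (gene 20191, chromosome 13, 11553099 to 12106945). Control 1 had 1 peak (11769925 to 11770221, 297 bp, 6.45-fold, 8 fragments), control 2 had 1 (11773063 to 11773523, 461 bp, 4.45-fold, 6 fragments), and the knockouts had none, against 0.831 and 1.56 expected. Both control peaks lay deep in the gene, 336.7 and 333.5 kb downstream of the start, and were 2.84 kb apart. The gene is thus called in both controls and neither knockout, as 1.18% of all genes and 5.96% of genes of 200 kb or more were, but at no common base. Its 2 peaks were fewer than the median of 4 in 593 genes of similar span, 82.8% of which had at least as many.

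Outside the window of Ryr2, 30.9 kb before its start, both controls called overlapping peaks and neither knockout did. The control 1 peak spanned 12137854 to 12138253 (400 bp, 10.6-fold) and the control 2 peak 12138017 to 12138727 (711 bp, 7.40-fold). The nearest knockout calls outside Ryr2 lay on the other side of the gene, 49.8 kb from the span in knockout 1 and 46.2 kb in knockout 2. This position was noticed after the calls were seen and lies outside the rule, so it is not counted among the 27. For comparison, 2.22% of the regions in coding gene windows were called in both controls and neither knockout. Nearer calls outside other members are given below, among them a place beside Cacna1c called in control 1 and knockout 1.

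Among the junction proteins, Trdn, which encodes triadin, a partner of the ryanodine receptor (gene 76757, chromosome 10, 33083483 to 33476709), had 2 peaks, both in control 2, at 33211462 to 33211672 (4.08-fold, 5 fragments) and 33400818 to 33401088 (4.76-fold, 6 fragments), 189.1 kb apart. No other library called Trdn, although control 1, with the longest list, had 1.47 expected. Both peaks were in the lower part of their list, at the 6.78th and 30.3rd percentile of fold.

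Asph encodes junctin and, from the same locus, an aspartyl hydroxylase (gene 65973, chromosome 4, 9449085 to 9669344). Control 1 called 9454536 to 9454768 (233 bp, 5.73-fold, 7 fragments), the member peak closest to the end of a span, its summit 5.60 kb inside. Control 2 called 9585594 to 9585948 (355 bp, 6.12-fold, 8 fragments) and knockout 2 called 9586267 to 9586842 (576 bp, 6.46-fold, 9 fragments). The last 2 peaks were 0.319 kb apart, the shortest gap between non-overlapping peaks of different libraries outside Cacna2d1. Over all 4 libraries Asph had 3 peaks against 2.40 expected, and 31.4% of the 1859 genes of similar span had as many or more. Jph2, which encodes the junctophilin that tethers both membranes (gene 59091, chromosome 2, 163336242 to 163398049), had no peak in any library, with 0.748 expected over all 4, and 65.9% of genes of similar span had none either.

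Slc8a1, the sodium-calcium exchanger gene (gene 20541, chromosome 17, 81373105 to 81738387), held the only member region called in 3 libraries. It was called in control 1 at 81683900 to 81684610 (711 bp, 8.79-fold, 12 fragments), in knockout 1 at 81684227 to 81684511 (285 bp, 4.36-fold, 9 fragments) and in knockout 2 at 81684117 to 81684494 (378 bp, 6.91-fold, 9 fragments), with 268 bp common to all 3. Control 2 had no call in Slc8a1, with 0.952 expected. The summits lay 54.1 to 54.3 kb downstream of the start, within 0.171 kb of each other. The mark was thus called at this place with AAV9-Cre as well as with AAV9-GFP.

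Other Slc8a1 calls were made by 1 library each. Control 1 called 81689584 to 81690448, the widest member peak at 865 bp (8.58-fold, 11 fragments), and knockout 1 called 81716642 to 81716929 (288 bp, 6.22-fold, 9 fragments). The 2 control 1 peaks of Slc8a1 were the only member peaks with more than 10 fragments and the only ones above the 90th percentile of fold of their list, at the 93.8th and 92.6th. In all, 5 peaks were observed against 3.91 expected, and 30.5% of 997 genes of similar span had as many or more.

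Atp2a2, which encodes the reticulum calcium pump SERCA2 (gene 11938, chromosome 5, 122453513 to 122502225), had no peak in any library, with 0.612 expected over the 4. Camk2d (gene 108058, chromosome 3, 126595487 to 126846326) had none either, with 2.72 expected. Among genes of similar span 71.2% and 22.4% had no peak. For Atp2a2 and Jph2, both short, an absence of calls is thus the common outcome, and for Camk2d it is less common. The nearest peak to Camk2d lay 108.9 kb outside its span, in control 2.

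**Figure D3:**
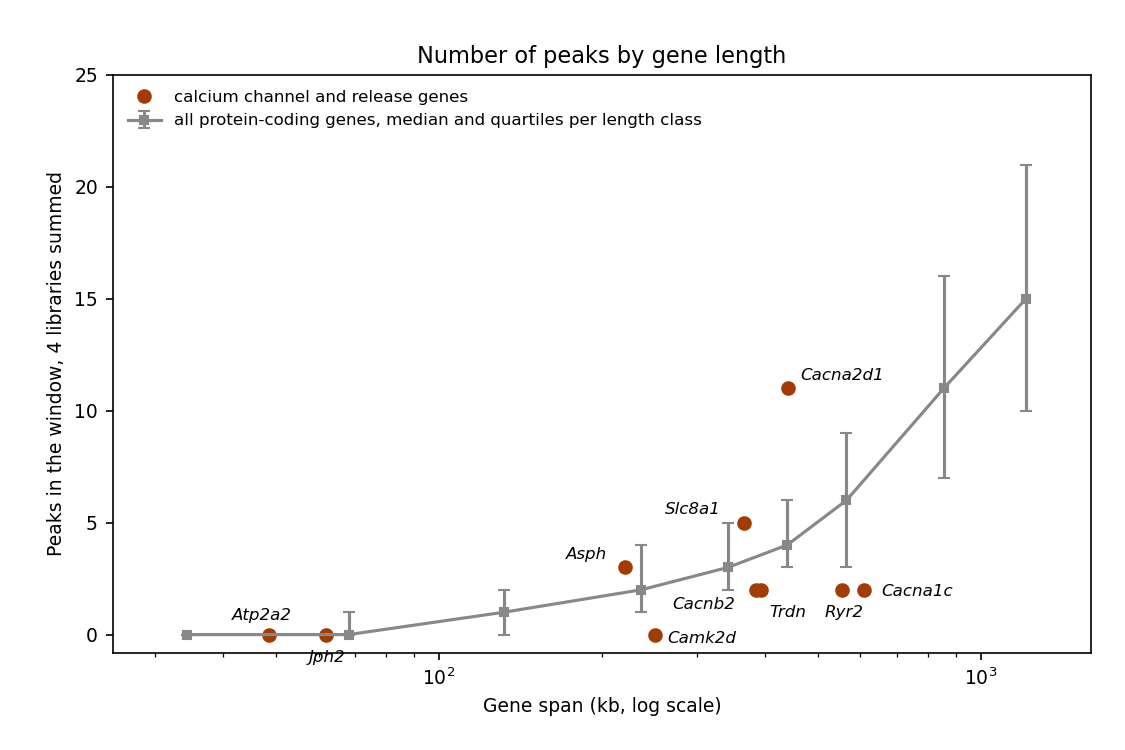
Peaks per gene window summed over the 4 libraries (y axis) against gene span (x axis, log scale). Grey squares and bars are the median and quartiles of all protein-coding genes in each length class from 25 kb up, and brown points the 10 members; Cacna2d1 lies above the upper quartile of its length class, while Ryr2 and Cacna1c, with 2 peaks, lie below the lower quartile of theirs.

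Over all members, the 27 peaks merged into 22 regions, of which 4 (18.2%) were called in 2 or more libraries, where 15.1% of the 9992 regions in coding gene windows were. Of the 22, 1 was called in 3 or more (5.21% of regions in coding windows) and 0 in all 4 (1.82%). By gene, 2 of 10 held a region called in 2 or more libraries, Cacna2d1 and Slc8a1 (5.23% of all genes, 39.6% of genes of 200 kb or more). Each of the 4 shared regions joined at least 1 control with at least 1 knockout. The controls shared 0 member regions with each other and the knockouts 1, that in Slc8a1. Over the whole lists the controls shared 1914 regions, the knockouts 1379, and a control and a knockout between 1185 and 2255. Recurrence was near the background share. Of the 22 member regions, 0 were called in both controls and neither knockout (2.22% of regions in coding windows) and 0 in both knockouts and neither control (0.931%), so with 22 regions a count of 0 does not set the members apart.

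The other 18 regions were called by 1 library. Of these, 9 had a peak of another library within 5 kb, in Ryr2, Cacnb2, Asph and Cacna2d1, a share of 50%, against 29.7% of the 8488 single-library regions in coding windows. This distance was chosen after the positions were seen. The 9 are not separate places. In Ryr2, Cacnb2 and Asph the regions were neighbours of each other and each was counted, and those of Cacna2d1 lay in the dense stretch described above. The background share was counted in the same way. The remaining 9, in Trdn, Cacna1c, Slc8a1, Asph and Cacna2d1, had none.

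**Figure D4:**
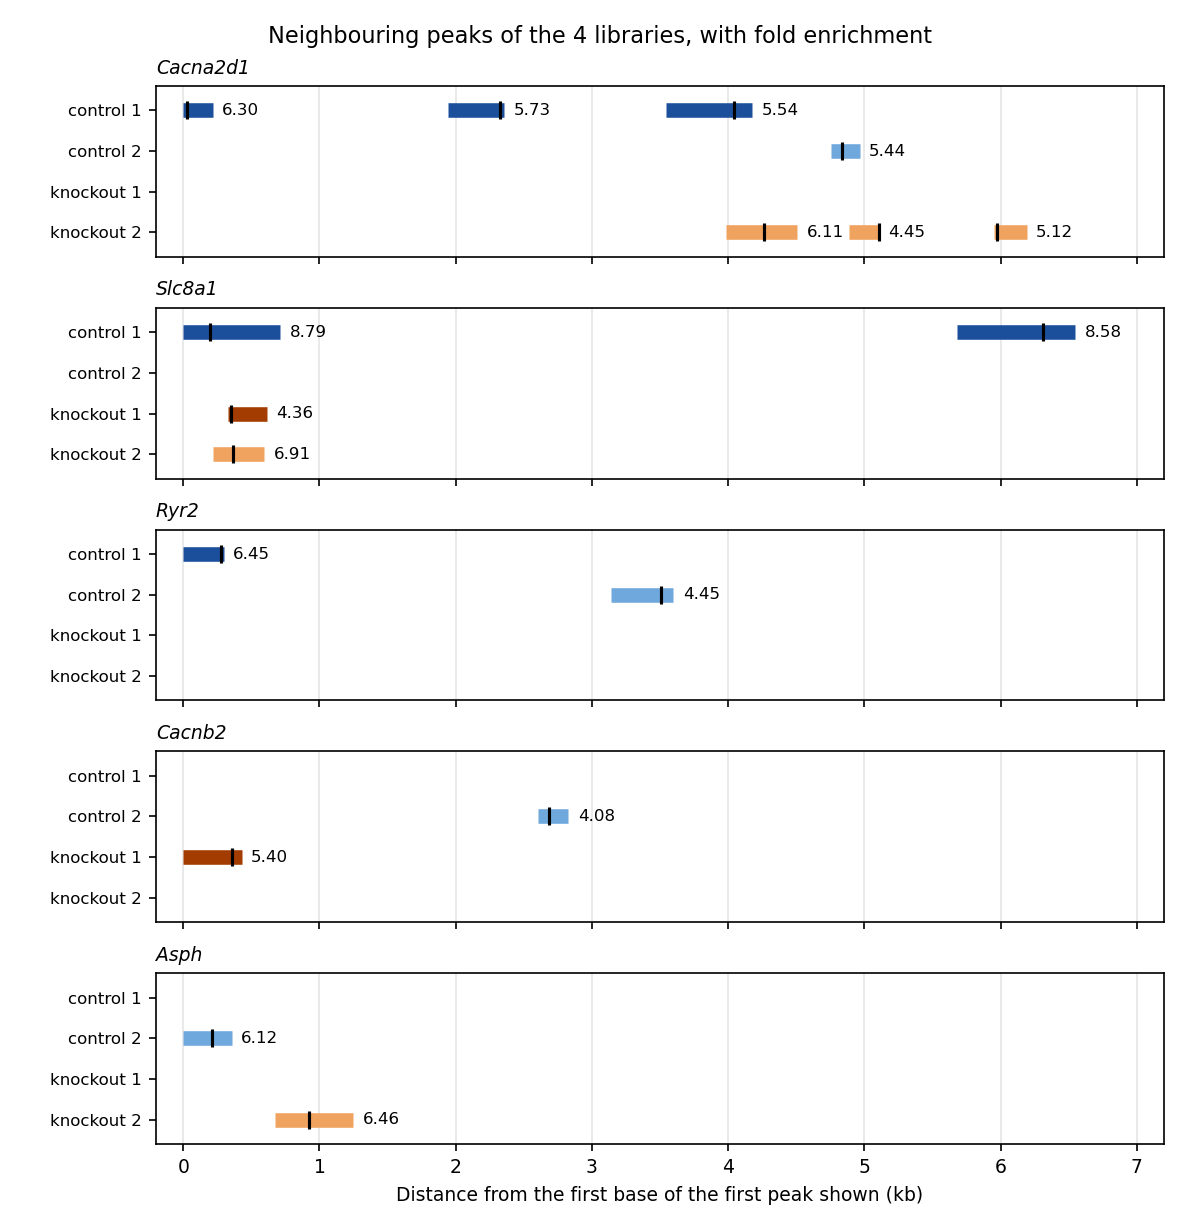
Neighbouring peaks in 5 genes, in kb from the first base of the first peak shown (x axis), 1 row per library; bars are peak widths, black ticks summits and numbers the authors' fold enrichment. In Slc8a1 the peaks of control 1 and both knockouts overlap, whereas in Ryr2, Cacnb2 and Asph the peaks of the libraries lie side by side.

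In strength the member peaks were ordinary for their lists. Fold enrichment, the authors' value relative to the local background in each library, ranged from 4.27 to 8.79 among the member peaks of control 1 and from 4.08 to 6.12 among those of control 2. In knockout 1 it ranged from 4.36 to 6.22 and in knockout 2 from 4.39 to 6.91. Ranked within its own list, the median member peak stood at the 48th percentile, and 13 of 27 were above the median of their list. The median percentile was lowest in control 2, at 15.9, where 2 of 7 were above the median, and was 57.2 for control 1, 46.9 for knockout 1 and 51.3 for knockout 2. Widths ran from 211 to 865 bp with a median of 296 bp. Fragments at the summit ranged from 5 to 12, and 7 of the 27 had a −log10 q of at least 5. Among peaks passing this cutoff the ratio of observed to expected was 0.597, where it was 0.756 for all peaks. No peak overlapped another annotated gene, and the share of all peaks in gene windows that do so was not determined.

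All 27 lay within the gene spans, none in the 5 kb on either side. These flanks are short beside the spans, whose median was 375 kb, so their lack of calls does not set the members apart. Past the limit of the window, knockout 1 called a peak 9.25 kb outside Trdn (4.88-fold) and control 2 one 10.5 kb outside Asph (5.44-fold). Cacna1c had a knockout 1 peak 13.1 kb outside (4.55-fold) and, beyond its other end, a control 1 peak 13.6 kb outside (118573055 to 118573603, 5.69-fold). The latter overlapped another knockout 1 peak. Control 1 called a peak 15.0 kb outside Cacna2d1 (4.30-fold) and control 2 one 18.1 kb outside Slc8a1 (4.08-fold). Slc8a1 had, 18.9 to 19.6 kb beyond its far end, overlapping peaks of control 1 (81353311 to 81353548, 6.45-fold) and knockout 2 (81353312 to 81354167, 7.32-fold). Again a control and a knockout were called at the same place.

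Among 32 other genes of cardiomyocyte calcium handling, with a median span of 59.2 kb, 13 had a peak in at least 1 library. Of all protein-coding genes 23.0% had one, and of those of 50 to 100 kb 39.7%, so the count was near the share for that length. Control 1 had 12 peaks in 8 of the 32 genes (13.3 expected) and control 2 had 5 in 4 (9.31). Knockout 1 had 3 in 2 (5.41) and knockout 2 had 11 in 9 (10.2). Their sum of 31 was below the 38.3 expected, as for the members. Itpr1, the inositol trisphosphate receptor gene, was the only one with a region called in 2 or more libraries, at chromosome 6, 108271972 to 108273020, in all 4. The fold there was 5.66 and 7.09 in the controls and 6.22 and 8.35 in the knockouts. Knockout 1 had 2 peaks in this merged region, of which 1 fold is given, and bases common to all 4 libraries were not determined. Akap6, an anchoring protein gene of the nuclear envelope and the release channel, had 4 and 2 peaks in the controls and 0 and 1 in the knockouts, with 4.87 expected in all. Akap7, another kinase anchoring gene, had 1 and 0 in the controls and 1 in each knockout, with 1.46 expected. By the same merging at 1 bp overlap, no member region was called in all 4 libraries as that of Itpr1 was.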

How the data were processed

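Of H3R17me2a, 2 control and 2 knockout ChIP libraries were analysed; the 4 input libraries have no peak list used here. Per the submitters' processing notes, the tools were Bowtie2, MACS2, DiffBind, FastQC and MultiQC and the build was mm10, with no versions or settings given. The authors deposited 1 peak list per library, without pooling. The deposited fold enrichment is a ratio to the local background, read here as fragments plus 1 over background plus 1. It is therefore smaller than the plain ratio of fragments to background. The deposited −log10 p and −log10 q give its significance, and the deposited score was not used. Folds depend on each library's depth and were ranked only within a list.

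Fragments at a summit were solved from the authors' fold and Poisson p-value (tolerance 0.01), which gave a whole number for 99.3% to 99.7% of peaks. Gene spans came from RefSeq GRCm38.p6, start positions and sequences from its promoter table; peaks were merged at 1 bp overlap. Expected numbers are each library's peaks per Mb over the union of protein-coding windows (1182 Mb) times window length. The scripts were tested on simulated peaks with known overlaps. Members and lists were chosen with earlier results of these data known, so no test was made. All 10 members are named, and of the other lists genes with peaks in 3 or more libraries or a region in 2 or more, at most 6. Python 3.11.15, NumPy 2.4.6, SciPy 1.17.1 and pandas 2.3.3 were used.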

Additional observations from a re-analysis of the deposited data

How the results depend on the processing

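No paired analysis was possible because no test was made and nothing in the labels ties libraries of the same number together. Keeping peaks with −log10 q of at least 5 left 7 member peaks, 4 genes with a peak in any library (1.5 per library on average, from 4.25), 1 region in 2 or more libraries, that of Slc8a1, and a control minus knockout difference of 0.5 peaks. In lists of equal length there were 14 peaks, 3 genes per library and 1 shared region, and the difference turned to −1. With 50 kb on either side there were 49 peaks, 6 genes per library and 8 shared regions, and the ratio of observed to expected peaks in the knockouts rose from 0.755 to 1.01. Expectation from the stretch between the first and last peak of each chromosome moved the ratio in the controls from 0.756 to 0.571. Shared regions fell from 4 to 2 with 50% reciprocal overlap. With 1 library left out they numbered 2 to 3 (2 without control 1 or without knockout 2), and the knockout ratio ranged from 0.631 without knockout 1 to 0.989 without knockout 2. The cause was not tested, beyond the fewer peaks or libraries that some settings leave. The ratio over all 4 libraries stayed below 1 in all settings run, from 0.578 to 0.912. Use of the spans alone changed no count of peaks, genes or shared regions. Few fragments per summit limit all of these counts.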

Other observations

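Among 23 relatives of the members best known from other tissues, such as the skeletal muscle and brain channel genes, 13 had a peak in at least 1 library. Their median span was 111 kb. Of all protein-coding genes 23.0% had a peak, and of those of 100 to 200 kb 61.7%, so the count was near the share for that length. Control 1 had 10 peaks in the 23 relatives where 14.7 were expected from their length, and control 2 had 9 (10.3 expected). Knockout 1 had 6 (5.98) and knockout 2 had 11 (11.2). The ratio over the 4 libraries was 0.853, beside 0.756 for the cardiac members. Ryr3, a ryanodine receptor gene of brain and other tissues, had 1 peak in each control and 2 and 4 in the knockouts (6.21 expected in all), where Ryr2 had 1 in each control and 0 in the knockouts. Jph1, the junctophilin gene of skeletal muscle, had 3 and 2 peaks in the controls and 1 in each knockout against 1.73 expected in all, where Jph2 had none. A region of Jph1 at chromosome 1, 16952913 to 16953792, was called in control 1, control 2 and knockout 1, with 12.5-, 8.52- and 6.16-fold enrichment. Cacna2d3, a brain alpha2delta gene, had 2 and 1 peaks in the controls and 1 in each knockout against 8.62 expected in all, and a region at chromosome 14, 28950006 to 28950264, called in control 1 (7.08-fold) and knockout 1 (8.71-fold). Differences between these genes and the members were not tested.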
